A study of Arabidopsis thaliana with 7 samples.

Results

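The kinase genes described here were the genes in any of 6 deposited gene lists whose description, up to its first semicolon, contained the word kinase. A gene whose description also named a plant hormone was to be left out, and 0 genes were. The lists together held 2600 genes, and 104 of them were kinase genes. Open chromatin was assayed by FAIRE-seq, a method that crosslinks proteins to DNA with formaldehyde and sequences the fragments left without protein, in whole rosettes of *Arabidopsis thaliana* Columbia-0 after 14 days on MS medium at 24 °C under 12 h of light. The *msh1* memory line descends from plants in which an RNAi transgene silenced *MSH1*, a nuclear gene for a protein that maintains organelle genomes. Its plants have lost the transgene and express *MSH1* again, yet keep an altered growth phenotype. Crosslinked libraries came from 3 memory plants (plants 1, 2 and 3) and from 2 wild type plants, which the lists call C2 and C3, and a decrossed pool of 3 plants per genotype was not analysed here.

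Each list set 1 memory plant against 1 wild type plant and named every gene to which the authors had assigned a peak lying in its body or at most 2 kb outside it. A gene was therefore listed or not listed, with no read count, peak height or p-value, and the depth of the libraries is unknown. The lists also do not say whether the memory plant or the wild type plant had the stronger signal. Lists that share a memory plant or a wild type plant share its chance values, so 6 listings of a gene are not 6 independent observations. In whole rosettes, a different mix of cell types and a change of chromatin within cells cannot be told apart. No test across replicates can be made from such lists, and the counts are given beside those for all genes.

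Protein kinases transfer phosphate from ATP to other proteins and so pass signals through the cell. Receptor-like kinases, one of the largest gene families of plants, sit in the plasma membrane with a ligand-binding ectodomain outside and a kinase domain inside, and they perceive peptide hormones, steroid hormones and fragments of microbes or of the cell wall. Inside the cell, MAP kinase cascades relay such signals from a MAP kinase kinase kinase through a MAP kinase kinase to a MAP kinase, while calcium-dependent protein kinases respond to calcium directly.

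Kinase genes were listed about as often as genes in general, and the share of them in all 6 lists was higher than over all listed genes. Of the 104 kinase genes, 28 (26.9%) were in all 6 lists, against 426 of all 2600 listed genes (16.4%). Those in a single list numbered 24 (23.1%), against 813 of all listed genes (31.3%). Between these ends, 25, 14, 10 and 3 kinase genes were in 2, 3, 4 and 5 lists. The kinase genes had 339 of the 7448 listings.

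**Figure D1:**
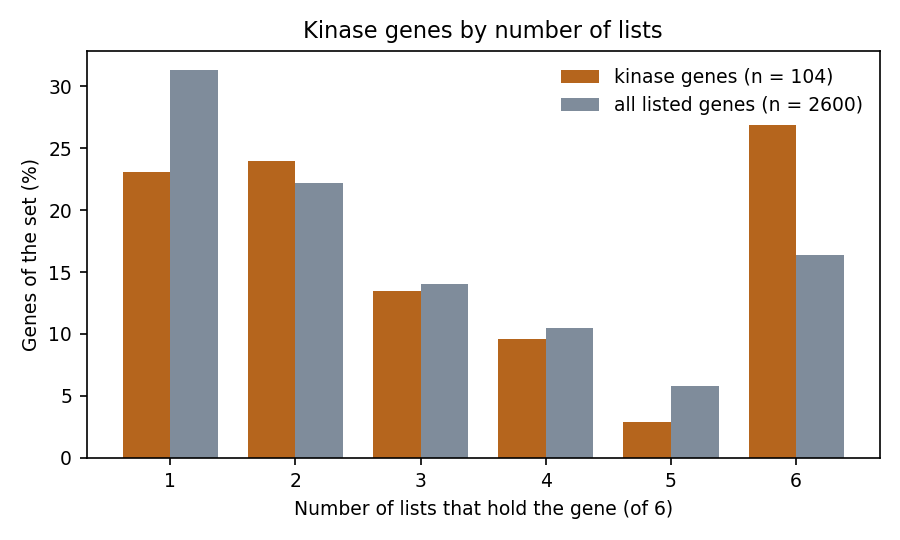
Number of lists that held a gene (horizontal axis, 1 to 6) against the percentage of genes (vertical axis), for the 104 kinase genes (orange) and for all 2600 listed genes (grey). Kinase genes stand above all listed genes at 6 lists (26.9% and 16.4%) and below them at 1 list (23.1% and 31.3%).

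Because the rule takes its word from the lists, it cannot be applied to genes outside them. The same word was therefore searched in the RefSeq product names of all 27444 nuclear protein-coding genes, which gave 1385 kinase genes, 5.05% of the total. In at least 1 list were 117 of these (8.45%), against 9.47% of all protein-coding genes. In all 6 lists were 29 of them (2.09%), against 1.55% of all protein-coding genes. Both shares lay near those of all genes, slightly below for any listing and slightly above for all 6, and neither difference was tested. The RefSeq product named a kinase for 99 of the 104 kinase genes, and for 18 listed genes that the rule did not take, among them 1 in all 6 lists (AT1G21245).

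The 6 lists held 41 to 75 kinase genes each (median 55.5), or 3.89% to 5.44% of a list. Against C2, plant 1 had 75 kinase genes, plant 2 had 57 and plant 3 had 66. Against C3, plant 1 had 54, plant 2 had 41 and plant 3 had 46. The lists against C2 held more kinase genes than those against C3 for each of the 3 plants, as they held more genes of any kind.

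The per-list share of the 1385 RefSeq kinase genes stayed close to the share of all protein-coding genes. Against C2, 5.7% of RefSeq kinase genes and 5.86% of all genes were listed for plant 1, 4.62% and 4.72% for plant 2, and 5.13% and 4.42% for plant 3. Against C3, 4.12% of RefSeq kinase genes and 4.76% of all genes were listed for plant 1, 3.32% and 3.84% for plant 2, and 3.9% and 3.55% for plant 3. Only plant 3 had a larger share of kinase genes than of all genes, by a small margin against each control. Both of its lists rest on the same plant 3 library, and the differences were not tested.

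Receptor-like kinases were the largest subfamily, with 36 of the 104 genes, and 9 of them (25%) were in all 6 lists, against 16.4% of all listed genes. The descriptions named leucine-rich repeats, the ectodomain type that binds peptides and steroids, for 14 of them. Of these 14, 6 (42.9%) were in all 6 lists, against the same 16.4%. The group is of few genes, and the difference was not tested. The 7 genes with a lectin ectodomain, the 3 with a cysteine-rich one and the 2 of wall-associated type gave 0 genes in all 6 lists, in groups too small to set against the 16.4%. The other 10 descriptions named no ectodomain, and 3 of those genes (*SERK4*, *PRK3* and *RLK4*) were in all 6 lists. This split follows the wording of the descriptions alone. A gene without a named ectodomain can still have one of these types, and a protein described by a type need not carry that ectodomain. For *PRK3* the RefSeq product names leucine-rich repeats.

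*BAK1* (AT4G33430, chromosome 4, 16086311 to 16090832, minus strand, coordinates of all genes from TAIR10.1) encodes the co-receptor that pairs with receptors for brassinosteroids and for bacterial flagellin, and it was listed for each memory plant against both controls. So was *SERK4*, also called *BKK1* (AT2G13790, chromosome 2, 5741592 to 5746833, plus strand), its close relative, which acts redundantly with it in the control of cell death. These were the only SERK genes listed, 2 of the 5 annotated (40%), against 9.47% of all genes in at least 1 list and 1.55% in all 6. The family is of few genes and was set apart here after its values had been seen, so its share was not read further. *BIR1*, which encodes a kinase that interacts with BAK1 and restrains cell death, was in 4 lists, those of plants 1 and 3.

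The other receptor-like kinase genes in all 6 lists included several with known developmental roles. *EMS1* (AT5G07280, chromosome 5, 2284830 to 2288855, plus strand) is needed to specify the tapetum in the anther. *TDR* (AT5G61480, chromosome 5, 24724337 to 24728244, minus strand) encodes the receptor for the CLE peptide that maintains vascular stem cells. *RPK1* (AT1G69270, chromosome 1, 26040689 to 26042741, minus strand) acts in embryo patterning and abscisic acid responses. *PRK3* belongs to the pollen receptor-like kinases. The last pair, AT1G51790 and AT1G51805, are leucine-rich repeat kinase genes close to each other on chromosome 1, and reads that map to more than one member of such a cluster cannot be placed from the lists.

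*LECRK71*, a lectin receptor kinase gene, was missing from 1 list (plant 1 against C3), and the other 6 lectin kinase genes were in 1 to 4 lists. *CRK40* was in the 3 lists against C2, and *CRK14* and *CRK28* in 2 lists each. The cell wall sensor gene *THE1* was listed for plant 1 against C2 alone. Over RefSeq families, 13 of 187 leucine-rich repeat kinase genes (6.95%), 7 of 81 lectin kinase genes (8.64%), 2 of 35 cysteine-rich CRK genes (5.71%) and 1 of 13 wall-associated WAK and WAKL genes (7.69%) were in at least 1 list, each below the 9.47% of all genes. The wall-associated family was taken by RefSeq symbol and the other 3 by RefSeq product name, the leucine-rich repeat and lectin families after their values had been seen. The RefSeq leucine-rich repeat set lacks *BAK1*, *RPK1*, *BIR1* and *CRN* and adds *PRK3*, AT3G02880 and AT1G67510, so it is not the set that the descriptions gave. The RefSeq CRK set likewise lacks the listed *CRK14*, so its listed count is incomplete. In all 6 lists were 5 of the leucine-rich repeat kinase genes (2.67%), against 1.55% of all genes, and 0 of the other 3 families.

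**Figure D2:**
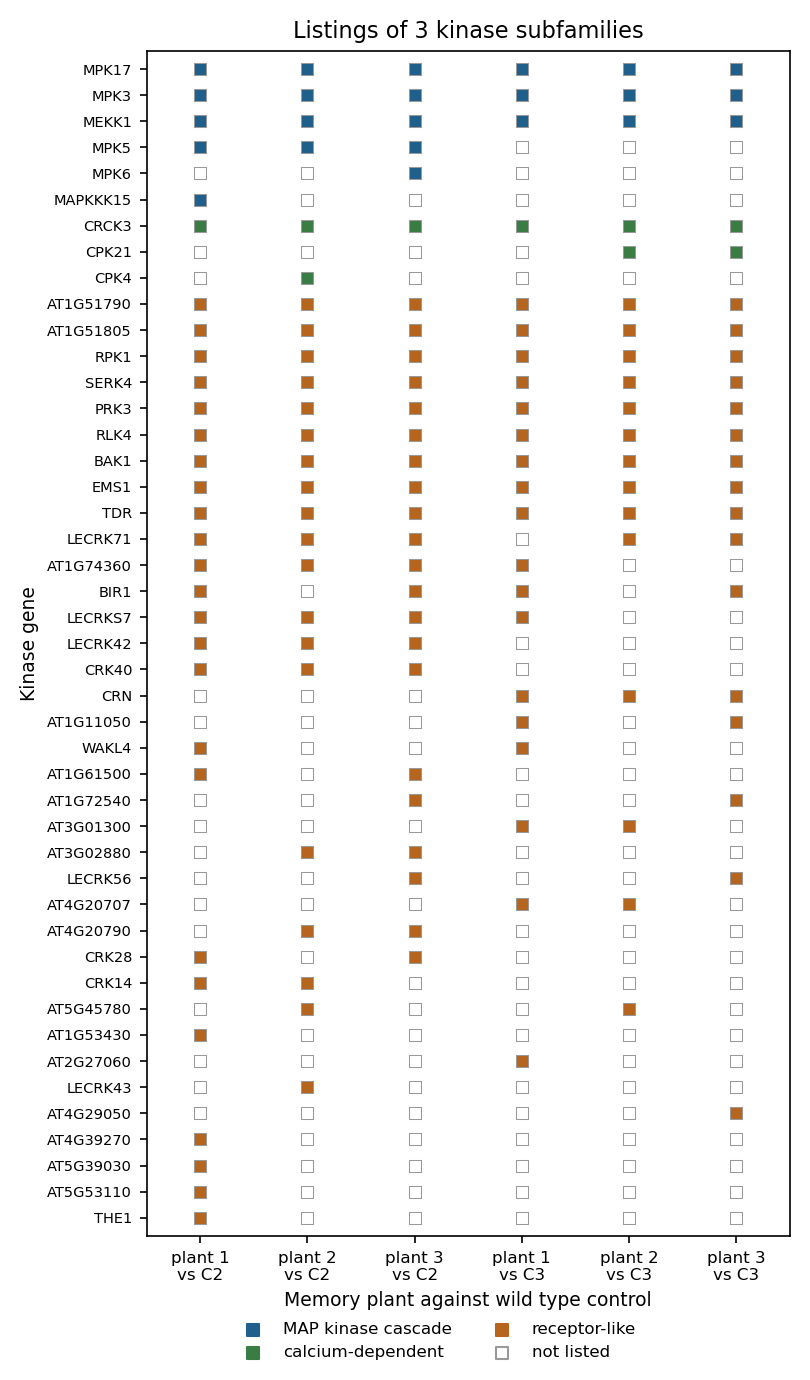
Listings of the 45 genes of the MAP kinase cascade (blue), calcium-dependent (green) and receptor-like (orange) subfamilies, 1 row per gene and 1 column per list of a memory plant against wild type C2 or C3; an open square is a gene not listed. MEKK1, MPK3, MPK17, CRCK3 and 9 receptor-like kinase genes fill all 6 columns, and MPK5 fills the 3 columns against C2 alone.

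The MAP kinase cascade subfamily held 6 listed genes, and 3 of them (50%) were in all 6 lists. The group is too small to set against the 16.4% of all listed genes. *MEKK1* (AT4G08500, chromosome 4, 5403671 to 5407320, minus strand) encodes a MAP kinase kinase kinase that acts downstream of immune receptors and restrains cell death through the MAP kinase MPK4. It was listed for plants 1, 2 and 3 against C2 and against C3. *MPK3* (AT3G45640, chromosome 3, 16756571 to 16758874, plus strand), a MAP kinase of immunity and stomatal patterning, and *MPK17* (AT2G01450, chromosome 2, 199491 to 203126, minus strand) were also in all 6 lists.

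The other 3 cascade genes depended on the plant or the control. *MPK5* was listed for all 3 memory plants against C2 and for none against C3. *MPK6*, whose product acts beside MPK3 in many responses, was listed for plant 3 against C2 alone. *MAPKKK15* was listed for plant 1 against C2 alone.

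At the level of RefSeq families, the first and last tiers of the cascade had listings and the middle tier had none. Of 20 annotated MPK genes, 4 (20%) were in at least 1 list and 2 (10%) in all 6. Of 21 MAPKKK and MEKK genes, 3 (14.3%) were in at least 1 list and 1 (4.76%) in all 6, and the added gene here was *MAPKKK20*, whose description in the lists lacks the word. Of 10 MKK genes, 0 were in any list. All genes were listed at 9.47%, and in families of 10 to 21 genes a few genes make up these differences, which were not tested.

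Calcium-linked kinases were the smallest subfamily, with 3 genes. *CRCK3* (AT2G11520, chromosome 2, 4618545 to 4621722, plus strand) was in all 6 lists. It entered the subfamily by the word calmodulin in its description, and its product is a cytoplasmic kinase that the immune receptor SUMM2 guards downstream of MEKK1 and MPK4. *CPK21* was listed for plants 2 and 3 against C3, and *CPK4*, a kinase of abscisic acid signalling, for plant 2 against C2. These were 2 of 34 annotated CPK genes (5.88%), against 9.47% of all genes, and 0 of the 26 CIPK genes, whose products act with calcineurin B-like calcium sensors, were in any list.

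**Figure D3:**
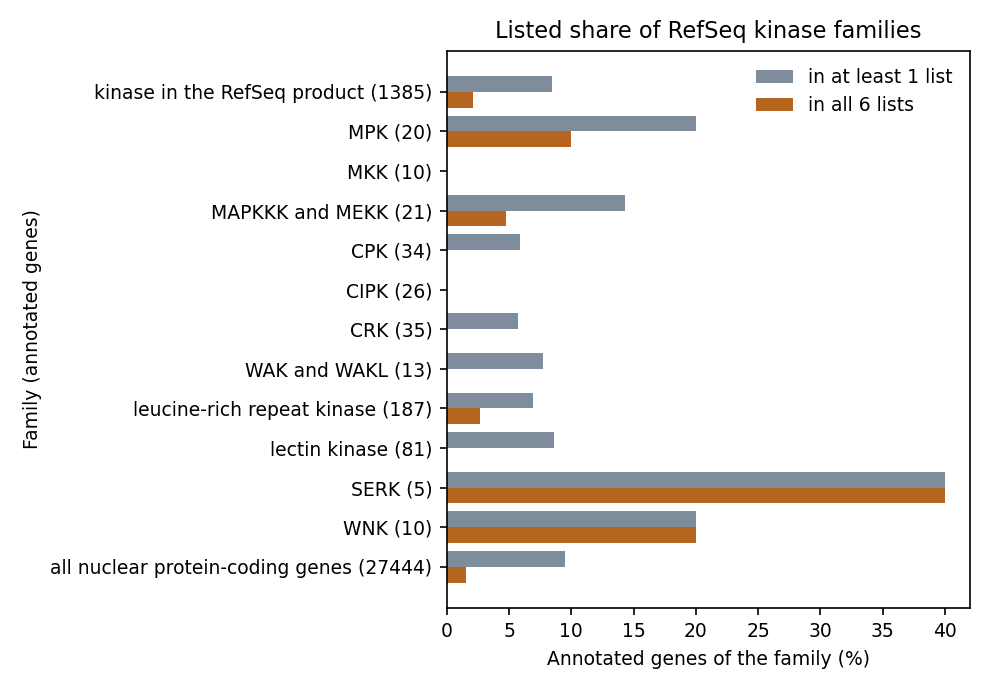
Percentage of the annotated genes of each RefSeq kinase family (vertical axis, number of genes in brackets) that were in at least 1 list (grey) and in all 6 lists (orange), with all nuclear protein-coding genes at the bottom. MKK and CIPK have no bar, and SERK stands highest with 2 of 5 genes (40%) in all 6 lists, against 1.55% of all genes. SERK is a family of few genes chosen after its values had been seen.

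The genes known to act around MEKK1 were looked up as a list of 24, from immune receptors and co-receptors through the cascade to its substrates and transcription factors. In at least 1 list were 7 of them (29.2%), against 9.47% of all genes, and in all 6 lists were 5 (20.8%), against 1.55%. The 5 were *MEKK1*, *MPK3*, *CRCK3*, *BAK1* and *SERK4*. Of the others, *BIK1*, which encodes the cytoplasmic kinase that binds immune receptors, was in the 4 lists of plants 2 and 3 and in neither list of plant 1, and *MPK6* was in 1 list. The list was chosen with *MEKK1* and other listings known, so its count describes these genes and does not set them apart.

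Only 9.47% of all protein-coding genes were in at least 1 list. A pathway step of a few genes without a listing therefore does not stand out. The 17 genes with no listing, 70.8% of those looked up, took in whole steps of the pathway. They were the receptor genes *FLS2*, *EFR* and *CERK1*, the MAP kinase kinase genes *MKK1*, *MKK2*, *MKK4*, *MKK5* and *MKK9*, the MAP kinase gene *MPK4* with its substrate gene *MKS1*, *SUMM2*, the phosphatase gene *MKP1*, the transcription factor genes *WRKY22*, *WRKY29* and *WRKY33*, and the *MEKK1* relatives *MEKK2* and *MEKK3*. A gene can be absent from a list because its peak was given to a neighbour or fell under a threshold that is not given in the sources used here.

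*MEKK2* and *MEKK3* are tandem relatives of *MEKK1* on the same strand and had no listing. *MEKK2* spans 15745 to 19969 bp and *MEKK3* 20060 to 23632 bp downstream of the *MEKK1* start (0 lists each). Between them and *MEKK1* lay 1 annotated protein-coding gene, AT4G08485, in 2 lists. *MEKK1* had 8888 bp of space on the downstream side. On the upstream side 2932 bp separated it from AT4G08510, a divergent gene in 1 list.

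**Figure D4:**
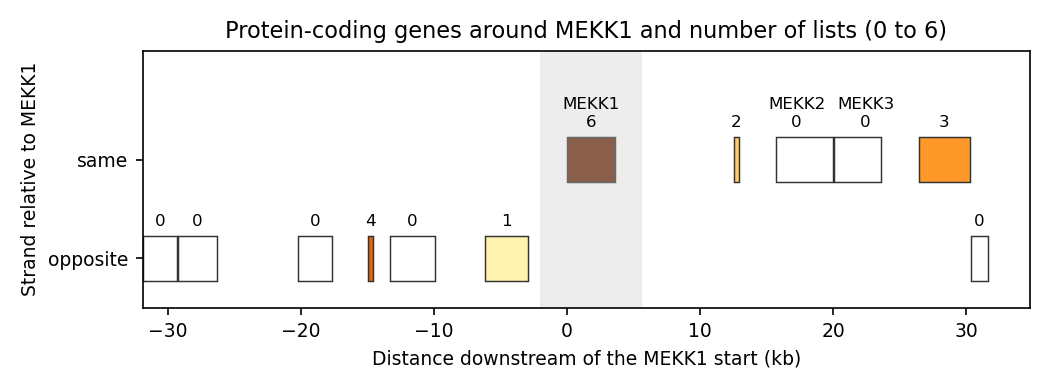
Protein-coding genes around MEKK1 by distance downstream of its start (horizontal axis, kb) and by strand relative to MEKK1 (vertical axis), with the number of lists above each box and as its colour, and the gene with 2 kb on both sides shaded. MEKK1 is in 6 lists and its tandem relatives MEKK2 and MEKK3 in 0.

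The stretches just upstream of the 5 pathway genes in all 6 lists are shown because the listings point to open chromatin in or near them, although the lists do not say where a peak lay. Each stretch is the 250 bases that end at the base before the annotated gene start in TAIR10.1. It is read 5′ to 3′ on the strand of the gene, and none overlaps an annotated gene. Capitals mark TTGAC, the core of the W-box that WRKY transcription factors bind, and its reverse complement GTCAA would be marked too. *MEKK1* is chr4:5407321-5407570, minus strand. *MPK3* is chr3:16756321-16756570, plus strand. *CRCK3* is chr2:4618295-4618544, plus strand. *BAK1* is chr4:16090833-16091082, minus strand. *SERK4* is chr2:5741342-5741591, plus strand.
MEKK1: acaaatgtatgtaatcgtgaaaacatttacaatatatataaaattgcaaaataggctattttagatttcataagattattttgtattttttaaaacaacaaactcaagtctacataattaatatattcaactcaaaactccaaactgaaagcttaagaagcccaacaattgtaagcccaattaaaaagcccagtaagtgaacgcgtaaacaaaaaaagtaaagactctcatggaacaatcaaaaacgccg
MPK3: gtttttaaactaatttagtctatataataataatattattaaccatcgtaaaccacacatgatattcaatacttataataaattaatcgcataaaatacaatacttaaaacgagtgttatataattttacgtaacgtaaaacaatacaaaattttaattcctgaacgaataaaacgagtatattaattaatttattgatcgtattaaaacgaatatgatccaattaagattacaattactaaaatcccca
CRCK3: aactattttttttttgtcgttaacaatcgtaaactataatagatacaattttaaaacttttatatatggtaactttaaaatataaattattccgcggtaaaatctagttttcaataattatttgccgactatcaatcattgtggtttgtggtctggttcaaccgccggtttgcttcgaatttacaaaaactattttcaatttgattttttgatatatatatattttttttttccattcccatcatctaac
BAK1: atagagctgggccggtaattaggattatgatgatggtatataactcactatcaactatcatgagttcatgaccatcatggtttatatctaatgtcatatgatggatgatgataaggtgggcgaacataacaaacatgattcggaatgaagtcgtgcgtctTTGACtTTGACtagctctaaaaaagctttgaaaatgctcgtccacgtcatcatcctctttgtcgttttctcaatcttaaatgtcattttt
SERK4: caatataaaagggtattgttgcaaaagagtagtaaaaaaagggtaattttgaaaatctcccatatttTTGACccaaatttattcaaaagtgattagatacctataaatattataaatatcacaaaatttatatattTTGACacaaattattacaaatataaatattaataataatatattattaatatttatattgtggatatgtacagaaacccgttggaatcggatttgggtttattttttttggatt

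The *BAK1* and *SERK4* windows each held 2 copies of TTGAC, which in *BAK1* stand side by side, and the windows of *MEKK1*, *MPK3* and *CRCK3* held 0 copies of either form. All 5 were poor in G and C, with 36.8% in *BAK1*, 28.4% in *MEKK1*, 25.6% in *CRCK3*, 21.6% in *SERK4* and 21.2% in *MPK3*. Over sets of windows of the same length, TTGAC or GTCAA on either strand occurred in 19 of the 28 kinase genes in all 6 lists (67.9%) and in 42 of the 76 in 1 to 5 lists (55.3%). It occurred in 641 of 1268 RefSeq kinase genes in no list (50.6%), in 197 of the 426 genes of any kind in all 6 lists (46.2%) and in 12329 of 27443 windows overall (44.9%). The letters were thus more frequent upstream of kinase genes, listed or not, and a match describes the letters and not a bound site.

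Protein kinases outside these subfamilies numbered 31, and 10 of them (32.3%) were in all 6 lists, against 16.4% of all listed genes. Among the 10 were both listed WNK genes, *WNK2* and *WNK9*, of a family named for its displaced catalytic lysine. They are 2 of the 10 annotated WNK genes (20%), against 9.47% of all genes in at least 1 list and 1.55% in all 6, in a family chosen after its values had been seen. *ATPK1* encodes a ribosomal S6 kinase that acts downstream of the growth regulator TOR. *PBL3* encodes a cytoplasmic kinase related to BIK1, and *CRPK1* a kinase of cold signalling. *PTI12* is named for its likeness to the tomato kinase Pti1. The other 4 (AT2G24360, AT3G28690, AT4G01330 and AT4G10730) are known in the lists by domain alone. *AHK4*, a histidine kinase gene and the cytokinin receptor whose description does not name the hormone, was in 4 lists, and *AHK5* in 1.

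The word kinase also took in proteins that act on kinases and enzymes that phosphorylate metabolites. Of 8 regulators, 3 (37.5%) were in all 6 lists, in a group too small to set against the 16.4% of all listed genes. The 3 were *KRP1* and *SMR6*, whose products inhibit cyclin-dependent kinases and so restrain the cell cycle, and *MAKR6*, for a probable membrane-associated regulator. *KRP4*, a relative of *KRP1*, was in the 3 lists against C2 alone. Of 18 small-molecule kinases, 2 (11.1%) were in all 6 lists, again against 16.4%, namely *AGK2*, a guanylate kinase gene, and AT4G28706, for a kinase of the PfkB sugar kinase type. Without regulators and small-molecule kinases, 78 protein kinase genes remained, of which 23 (29.5%) were in all 6 lists, against the same 16.4%.

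The listings of kinase genes varied with the memory plant and with the control. For all 3 memory plants, against at least 1 control, 49 kinase genes (47.1%) were listed, against 968 of all listed genes (37.2%). For a single plant 34 (32.7%) were listed, against 1073 (41.3%). Plant 1 alone accounted for 20 of the 34 kinase genes (19.2% of the 104), against 571 of all listed genes (22%). Plant 2 alone had 6 (5.77%), against 297 (11.4%), and plant 3 alone had 8 (7.69%), against 205 (7.88%). Plant 1 had the most such genes among kinase genes and among all listed genes. Under both controls, 6 kinase genes (5.77%, among them *WAKL4* and *KINB3*) were listed for plant 1 alone, against 181 of all listed genes (6.96%). For plant 2 alone there was 1 (AT5G45780, 0.962%), against 42 (1.62%). For plant 3 alone there were 3 (*APK3*, *LECRK56* and AT1G72540, 2.88%), against 37 (1.42%). The genes named in this split were chosen after their values were seen.

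Against both controls 55 kinase genes (52.9%) were listed, against 1293 of all listed genes (49.7%). Against C2 only were 36 (34.6%), against 810 (31.2%), and against C3 only 13 (12.5%), against 497 (19.1%). The strictest form of this split, 3 lists against 1 control and 0 against the other, held for 9 kinase genes with C2 (8.65%), against 157 of all listed genes (6.04%). These were *MPK5*, *KRP4*, *LECRK42*, *CRK40*, *PFK1* (a phosphofructokinase gene of glycolysis), *IREH1*, AT1G77280, AT3G45670 and AT5G35580. With C3 it held for 1 kinase gene (0.962%), against 48 (1.85%). That gene was *CRN* (*CORYNE*), whose product acts with CLAVATA2 to limit the shoot stem cell pool. That the listing of these 10 genes went with the wild type plant is what the split selects. The lists against C2 also held more genes of any kind, and the cause of the pattern was not tested.

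Kinase genes in all 6 lists had more room around them than the other kinase genes. Their median space to the upstream protein-coding gene was 2582 bp, against 1332 bp for kinase genes in 1 to 5 lists and 1041 bp for RefSeq kinase genes in no list. At least 2 kb of upstream space was free for 64.3% of them, against 43.4% in 1 to 5 lists and 31% in no list. Genes of any kind showed the same order, with 51.6% in all 6 lists, 40.4% of all listed genes and 28.3% of genes in no list. Here the listed genes include those in all 6 lists. Over all protein-coding genes the share was 29.4%. Gene length differed less among kinase genes, with medians of 3103, 2815 and 2998 bp in all 6 lists, in 1 to 5 lists and in no list. Kinase genes were longer than genes of any kind, with medians of 2951 bp against 2252 bp when listed and 3103 bp against 2250 bp in all 6 lists. They also had more upstream space when listed, with a median of 1932 bp against 1366 bp. The part of this room and of gene length in the listings was not tested.

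**Figure D5:**
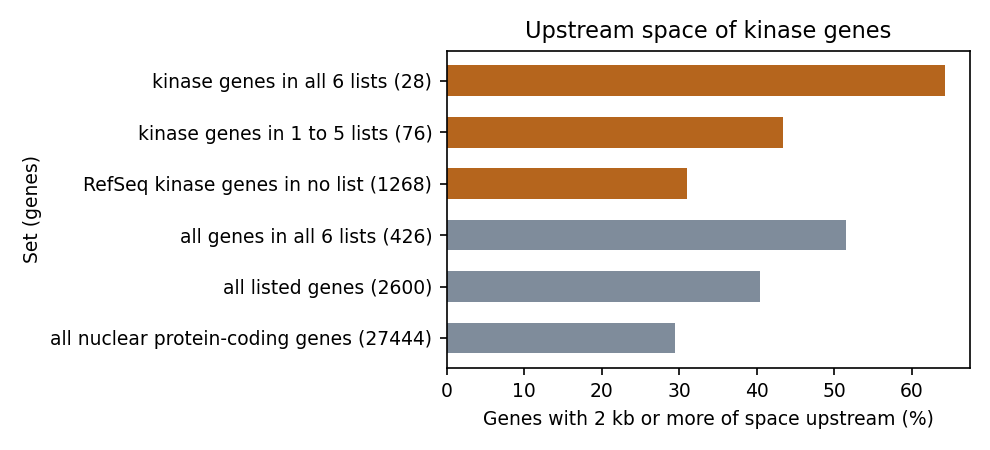
Percentage of genes with at least 2 kb between the gene start and the next protein-coding gene upstream (horizontal axis), for kinase genes (orange) and genes of any kind (grey), with the number of genes in brackets. The share falls from 64.3% for kinase genes in all 6 lists through 43.4% in 1 to 5 lists to 31% in no list.

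Repeated sequence upstream, taken as the soft-masked share of the 2 kb before the gene start, had a median of 27.9% in kinase genes in all 6 lists, 22.9% in those in 1 to 5 lists and 22.6% in RefSeq kinase genes in no list. Genes of any kind had 25.8% in all 6 lists, 23.9% when listed at all and 21.9% in no list, the same order. The share was 94.1% for *SERK4*, 59.9% for *CRCK3* and 48% for *MEKK1*, against 26.4% for *BAK1* and 21.1% for *MPK3*. How reads from repeats were placed is not given in the sources used here, and the part of repeats in these listings was not tested.

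A peak between neighbours can be given to both of them. Of the 28 kinase genes in all 6 lists, 19 had no other listed gene whose 2 kb window overlapped theirs, and 9 (32.1%) had at least 1, against 124 of the 426 genes of any kind in all 6 lists (29.1%). *EMS1* was the only one of the 28 with a neighbour also in all 6 lists (*XBAT33*, 1162 bp away). *MPK17* had *RECG* in 5 lists at 210 bp, and *RLK4* had *RHB1A* in 5 lists at 187 bp and *ATI2* in 3 lists. For *MEKK1* and *BAK1* the listed neighbours were each in 1 list, and *MPK3*, *CRCK3*, *SERK4* and *TDR* had none.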

How the data were processed

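FAIRE-seq libraries of 3 *msh1* memory plants were each compared with those of 2 wild type plants. Per the labels, reads were trimmed with Trim Galore 0.4.1 and cutadapt 1.9.1 and aligned with Bowtie2 to TAIR10, and replicates were not pooled. The peak caller and its threshold are not given in the sources used here. The authors deposited 6 gene lists (identifier, symbol, description), so the deposited value per gene is presence or absence. The labels do not say which wild type replicate is C2 or C3. Depth is unknown, so no depth interval is given.

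All identifiers (0 unmatched) were found in RefSeq TAIR10.1, which gave positions, families and sequences. Subfamilies came from words in the descriptions, and regulators and small-molecule kinases were separated by reading them. The genes named are *MEKK1*, those in all 6 lists, the MAP kinase cascade and calcium-dependent genes, those in 3 lists against 1 control and 0 against the other, and listed *MEKK1* pathway genes. Any other gene was named after its values were seen. Members and lists were chosen with earlier results of these data known. Counts were made in Python 3.11.15 with numpy 2.4.6, and the code was tested on simulated lists. No test was run, since each list sets 1 library against 1 library.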

Additional observations from a re-analysis of the deposited data

How the results depend on the processing

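Of 66 alternative values over 6 counts and shares, 58 stayed near the main value and 8 moved further. Near meant within a factor of 1.5 of the count, or within the 95% Wilson interval of the share (19.3% to 36.2%). That interval holds counting error only and treats the 104 genes as independent. It served as a yardstick here and is no test against all listed genes. Searching the whole description, keeping hormone terms and counting neighbouring members once changed none of the 6 values, and the 58 include them. With the lists against C3 alone, 68 kinase genes, 23 receptor-like and 3 MAP kinase cascade genes were listed, against 104, 36 and 6 over 6 lists, and 45.6% of the kinase genes were in every list, against 32.3% of all listed genes. With the lists against C2 alone, 91 kinase genes, 30 receptor-like and 6 MAP kinase cascade genes were listed, and 46 kinase genes were in every list, or 50.5%, against 37.9% of all listed genes. A gene then had to be in 3 lists and not 6 to be in every list. For each of the 3 plants the list against C3 was also shorter (973 to 1305 genes) than that against C2 (1213 to 1608), and the cause of the lower counts with C3 was not tested. The words protein kinase in place of kinase left 61 genes, 18 of them in all 6 lists, since fewer descriptions hold both words. Leaving out 1 memory plant gave 84 to 98 kinase genes, 28 to 31 in every list (29.2% to 35.7%, against 22% to 24% of all listed genes), 29 to 34 receptor-like, 5 to 6 MAP kinase cascade and 2 to 3 calcium-dependent genes. Keeping protein kinases alone (78 genes, 23 in all 6 lists) and kinase genes with no listed gene in an overlapping window (84 genes, 19 in all 6 lists, 22.6%) were alternatives chosen after seeing the data. No paired analysis was possible because the lists hold no value for a single library, only the outcome of 1 memory plant against 1 wild type plant. The unknown depth and threshold limit what an absence from a list means.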

Other observations

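The rows of each list form 3 blocks per chromosome, of plus strand genes, of minus strand genes and of both, and what the blocks stand for is not stated. The third block held 37.8% of the kinase gene listings, against 37.2% of all listings. Of the 28 kinase genes in all 6 lists, 18 were never in the third block, 3 were always in it (10.7%, *MPK3*, *TDR* and AT3G28690) and 7 changed. Of all 426 genes in all 6 lists, 286 were never in it, 65 always (15.3%) and 75 changed. *MEKK1* and *BAK1* were in the second block of every list, and *SERK4* and *CRCK3* in the first. By chromosome, 25 kinase genes (24%) lay on chromosome 4, against 17.1% of all listed genes and 15.2% of protein-coding genes, and 18 (17.3%) on chromosome 1, against 24.3% and 26.1%. The spread of all RefSeq kinase genes over the chromosomes was not counted, so these shares do not set the listed kinase genes apart from the unlisted ones.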
